A study of Mus musculus with 68 samples.

Results

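The comparison was between MCM2-R#2, a mouse embryonic stem cell (ESC) line in which the MCM2-2A mutation had been reverted, and WT#1, the wild-type line of the same rescue experiment. Its members were the 4 MCM2-R#2 libraries and the 5 WT#1 libraries of the rescue count table, 9 of the 68 libraries of the series. WT#1 culture 3 had been sequenced in 2 runs, whose counts were added, so the comparison was of 4 cultures against 4. The question was which transcripts still differed between the lines after the reversion.

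MCM2 is a subunit of the ring-shaped helicase that unwinds DNA ahead of the replication fork, and its N-terminal tail also binds the parental histones H3 and H4. This tail passes old histones, with their modifications, to the lagging strand, and the 2A point mutations in its histone-binding domain send most of them to the leading strand. Histone and DNA modifications keep some loci in a stable on or off state through many divisions, and imprinted genes, which are expressed from the maternal or the paternal allele according to a methylation mark laid down in the germline, are a familiar example. In mouse ESC such marks can be lost or gained in culture, and a clone keeps what its founding cell had.

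All lines were derived from E14JU, a male ESC line of strain 129/Ola grown in serum with LIF. WT#1 carried unmodified MCM2, MCM2-2A#2 carried the point mutations, and MCM2-R#2 was the corresponding line with the mutation edited back. Each line was 1 clone, so a difference made by the reversion, one inherited from the mutant clone and one fixed by single-cell cloning cannot be told apart. The labels of the 4 MCM2-R#2 libraries gave a wild-type genotype, and their titles used another line number than the columns of the count table. Counts per gene do not show whether the point mutations were present. The separation of the libraries labelled MCM2-R#2 from WT#1 rests on these titles and on the study's sample table.

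Total RNA depleted of ribosomal RNA had been sequenced, and 24964517 to 60608619 counts fell on 55335 genes and 1146 repeat subfamilies per culture. The common dispersion of the fit was 0.0109, a biological coefficient of variation of 10.4%. Of the WT#1 cultures, culture 3 was in both runs and culture 4 in run 2 alone, whereas the MCM2-R#2 cultures were all in run 1. The 12 ESC markers were all expressed and were summed at 5135 to 5824 CPM (the count as a share of the TMM-scaled library) in WT#1 and 5321 to 5721 in MCM2-R#2. Their log2 fold changes of MCM2-R#2 over WT#1 lay between -0.21 and 0.09. The Sox2 level was 342, 401, 372 and 399 CPM in WT#1 and 325, 342, 315 and 329 in MCM2-R#2 (log2 fold change -0.21, edgeR adjusted p = 0.20).

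Of 17098 genes tested, 51 (0.298%) were called, which required an edgeR adjusted p under 0.01 together with a log2 fold change of over 0.58 in either direction. Of these, 46 (0.269%) were lower in MCM2-R#2 and 5 (0.0292%) were higher. The median over all genes was 0.01, and 1052 genes (6.15%) had no overlap between the cultures of both lines, 418 (2.44%) of them with MCM2-R#2 higher. The called genes fell into a few places and groups. There were 17 in a stretch of chromosome 6 that begins with Mcm2, 5 on chromosome Y, 7 in the imprinted Dlk1-Meg3 cluster of chromosome 12, 7 other imprinted genes, and 15 of no such group. Over windows of 9 neighbouring tested genes, 40 of 16885 windows had a median past 0.58 in absolute value. Of these, 27 lay on chromosome 6, 6 on chromosome 12, 6 on chromosome 4 and 1 on chromosome Y. The windows of chromosome 4, from Gm12795 to Mier1, shared a median of 0.61, set by Gm12794 (1.61 ± 0.450 CPM in WT#1 and 2.43 ± 0.630 in MCM2-R#2, mean ± SD, n = 4; edgeR adjusted p = 0.30). They held no called gene, and the lowest p there was that of Gm12800 (0.88, edgeR adjusted p = 0.033).

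**Figure D1:**
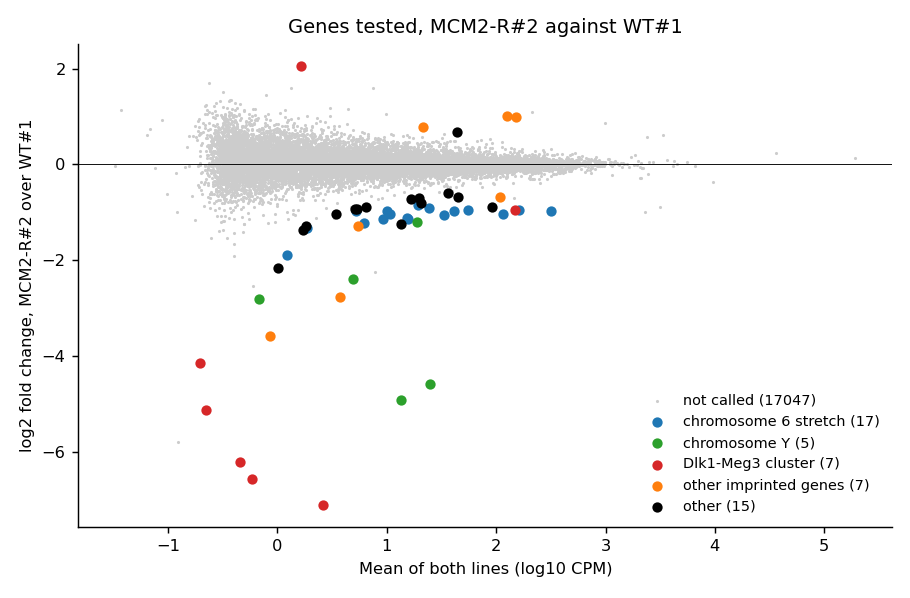
Log2 fold change of MCM2-R#2 over WT#1 against the mean level of both lines (log10 CPM) for the tested genes, with the called genes coloured by group. Most of the 51 called genes lie below 0, those of the chromosome 6 stretch close to -0.98 and the short RNAs of the Dlk1-Meg3 cluster at the bottom left.

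The lowest ratios of the comparison were in the Dlk1-Meg3 cluster. This imprinted domain holds Dlk1, which encodes a Notch-like transmembrane protein, on the paternal allele, and Meg3, Rian and Mirg, non-coding RNAs, on the maternal allele. Many miRNAs and C/D-box small nucleolar RNAs are cut from these long transcripts. The features at or near 0 in MCM2-R#2 began at Mir433 and ended at the snoRNA gene Gm24895, chr12:109591715-109646202 (mm10, plus strand, 54.5 kb). The interval was drawn after the counts were seen, so its sums are a description. It holds 8 miRNA genes, whose mature sequences (RefSeq, GRCm38.p6) are shown, 1 for each gene, because they are the products annotated to the part of the cluster that lost its signal. Capitals mark the seed, bases 2 to 8.
miR-433-3p: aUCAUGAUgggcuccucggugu
miR-127-3p: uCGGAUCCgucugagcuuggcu
miR-434-3p: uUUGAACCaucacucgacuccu
miR-432: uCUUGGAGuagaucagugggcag
miR-136-5p: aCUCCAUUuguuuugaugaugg
miR-341-3p: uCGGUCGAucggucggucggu
miR-1188-5p: uGGUGUGAgguugggccagga
miR-370-3p: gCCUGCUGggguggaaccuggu

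The 15 mature sequences of these 8 genes had 15 distinct seeds. Of them, 14 shared their seed with no other of the 1738 mature sequences in the table. The exception, miR-370-5p, shared it with miR-1193-3p of the same cluster, which lies beyond the interval. The libraries counted fragments over the hairpins in total RNA, not mature miRNAs, so the levels of the sequences printed above were not measured.

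Summed over the 16 features of the interval, the counts were 233, 257, 567 and 392 in the cultures of WT#1, 167, 198, 196 and 505 in MCM2-2A#2, and 1, 0, 3 and 6 in MCM2-R#2. As a level this was 9.33 to 12.2 CPM in WT#1, 5.74 to 8.80 in MCM2-2A#2 and 0 to 0.209 in MCM2-R#2. The signal was near 0 in every MCM2-R#2 culture, for which the features had been chosen, and present in every culture of the other lines. The MCM2-R#2 total was 0.837% of that of WT#1 after scaling to library size (95% interval 0.401% to 1.54%, exact, counting error only). Because of that choice, neither this ratio nor its interval is a test of the fall. No single feature had more than 3 counts in an MCM2-R#2 culture, and 10 of the 16 had 0 in all of them.

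The snoRNA gene Gm24895 had 112, 123, 281 and 222 counts in WT#1 and 1, 0, 0 and 3 in MCM2-R#2 (738 against 4, 0.658% of WT#1, edgeR adjusted p = 2.4e-07). Gm27350, annotated as a miscellaneous RNA, had 25, 35, 70 and 37 counts in WT#1 and 0, 0, 1 and 0 in MCM2-R#2 (0.727% of WT#1, 95% interval 0.0183% to 4.10%, adjusted p = 3.3e-06). The count of Mir433 was 25, 17, 64 and 26 in WT#1 and 0, 0, 0 and 1 in MCM2-R#2 (0.919%, 0.0231% to 5.21%, adjusted p = 4.9e-05). None of these features had a level in MCM2-R#2 that overlapped that of a WT#1 culture. Mir434 fell from 60 counts in all to 1 (2.02%, 0.0504% to 11.7%, adjusted p = 4.3e-04), and Mir432 from 51 to 2 (4.76%, 0.561% to 18.1%, adjusted p = 6.8e-04). For Mir434 and Mir432 DESeq2 gave no adjusted p, and a fit of the 8 cultures alone left both out for low counts. Among the features with 0 counts in MCM2-R#2 were Mir127, with 6, 2, 18 and 15 counts in WT#1, Gm24564 with 58 in all and AF357425 with 50. Against a floor of 3 counts over the 4 cultures these were at least 11.3-fold, 15.9-fold and 13.7-fold lower in MCM2-R#2. Mir341, Mir1188 and Gm23474 were likewise at least 4.12-fold, 10.7-fold and 6.32-fold lower. Mir136, Mir370 and Gm23912 also had 0 counts in MCM2-R#2, but with 3, 4 and 2 counts in WT#1 they carry little weight.

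Both sides of the interval, whose limits were set by these same counts, were expressed in MCM2-R#2. The 16 features before it, which include Dlk1 and Meg3, summed to 8257 counts in WT#1 and 7887 in MCM2-R#2 (116% after scaling, 95% interval 112% to 120%). The 60 features after it, which include Mirg, summed to 7056 and 7662 (132%, 128% to 136%). Meg3 differed by 0.14 (SE 0.13, adjusted p = 0.73), Dlk1 by 0.12 (adjusted p = 0.74) and Mirg by 0.46 (adjusted p = 0.28). Rian, the long RNA whose annotation spans the end of the interval, chr12:109603940-109661716, had 196, 178, 191 and 215 CPM in WT#1, 102, 116, 145 and 147 in MCM2-2A#2, and 99.1, 119, 92.0 and 93.8 in MCM2-R#2. It was called lower in MCM2-R#2 than in WT#1 (-0.95, SE 0.11, adjusted p = 3.6e-04). Just before the interval, Mir3070b had 0.803, 0.545, 0.665 and 0.529 CPM in WT#1 and 2.72, 2.82, 2.52 and 2.51 in MCM2-R#2 (2.06, SE 0.24, adjusted p = 3.5e-04). Mir3070a (60 counts against 134, adjusted p = 0.021) and Mir431 (22 against 54, adjusted p = 0.11) lie on the same side and were not called. Mir3070a and Mir3070b are near-identical copies, between which reads can be split.

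**Figure D2:**
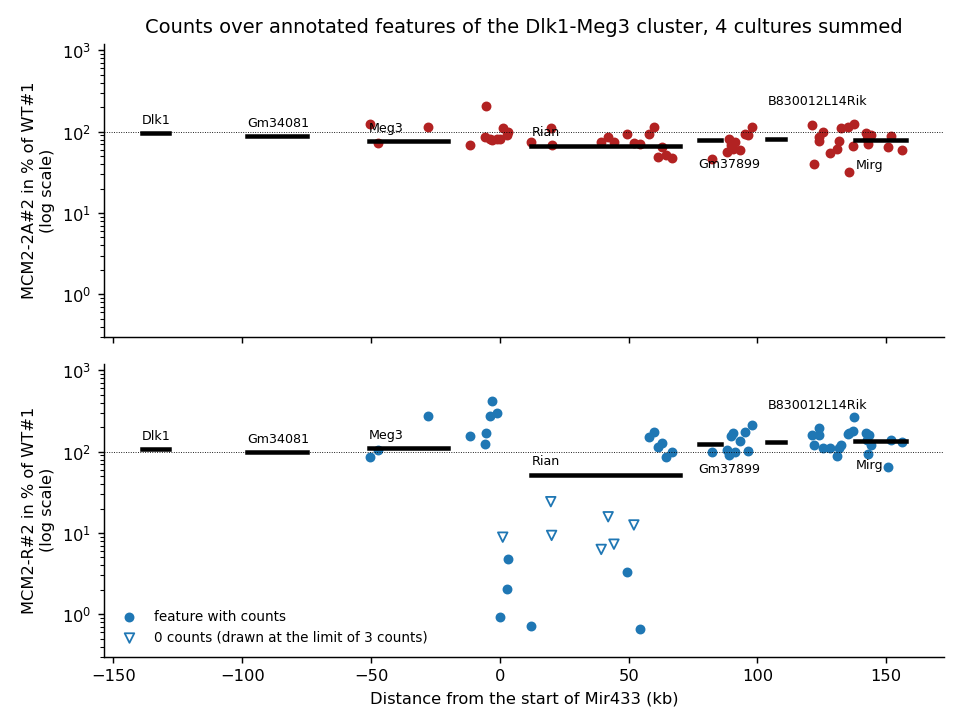
Counts over annotated features of the Dlk1-Meg3 cluster, 4 cultures summed and given in percent of WT#1 after scaling to library size (log scale), against the distance from the start of Mir433 in kb. The upper panel is MCM2-2A#2 and the lower MCM2-R#2, bars are long genes, and open triangles stand for 0 counts, drawn at the limit of 3 counts. MCM2-R#2 drops over the interval of 54.5 kb and lies near or above 100% before and after it, apart from Rian.

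MCM2-2A#2 had 1066 counts over the interval, though 0 at Mir136. MCM2-R#2 was lower than MCM2-2A#2 at Gm24895 (adjusted p = 2.1e-06), Gm27350 (1.4e-05), Mir433 (1.1e-04), Mir434 (4.2e-04) and Mir432 (4.4e-04), all by the same edgeR fit, in which 234 genes (1.37%) were called between these lines. Against WT#1, the adjusted p of MCM2-2A#2 at these features was 0.10, 0.23, 0.49, 0.76 and 0.97, in a contrast with 472 calls (2.76%). Rian did not pass between MCM2-R#2 and MCM2-2A#2 (-0.34, adjusted p = 0.075).

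Of 59 imprinted genes listed, 50 were tested, and 7 were called in MCM2-R#2 against WT#1, where 0.298% of all genes were called. The median of the 50 was 0.07, against 0.01 over all genes. Of the 50, 15 had no overlap between the lines, against 6.15% of all genes. Summed, the tested genes of the list had 2613 to 3312 CPM in WT#1 and 3412 to 4349 in MCM2-R#2. Much of this shift came from Peg10, an abundant gene that was not called and is given below. Called genes of the list were Rian, H19, Plagl1 and Peg13, which were lower, and Mest, Grb10 and Zrsr1, which were higher. Impact, which is imprinted but was not on the list, was lower as well.

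The largest fall among these outside the Dlk1-Meg3 cluster was at Peg13, a paternally expressed non-coding RNA (chr15:72805600-72810324). It had 1.73, 1.38, 1.65 and 1.53 CPM in WT#1, 0.137, 0.520, 0.269 and 0.415 in MCM2-2A#2, and 0.0363, 0.150, 0.256 and 0.0697 in MCM2-R#2 (-3.58 against WT#1, SE 0.38, adjusted p = 1.2e-04). Both edited lines were below every WT#1 culture. Plagl1, a zinc finger transcription factor that restrains growth (chr10:13060504-13131694), had 6.63, 3.67, 7.66 and 7.88 CPM in WT#1 and 6.29, 5.46, 11.2 and 8.73 in MCM2-2A#2. In MCM2-R#2 it had 0.943, 0.539, 1.54 and 0.871, or -2.76 against WT#1 (SE 0.33, adjusted p = 3.6e-04) and -3.04 against MCM2-2A#2 (SE 0.32, adjusted p = 1.0e-04). MCM2-R#2 alone was low at this gene.

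H19, a maternally expressed growth-restraining RNA (chr7:142575529-142578143), stood at a different level in each line. It had 6.76, 8.35, 8.95 and 6.48 CPM in WT#1, 14.8, 16.7, 20.5 and 20.8 in MCM2-2A#2, and 2.61, 2.34, 3.98 and 3.73 in MCM2-R#2. MCM2-R#2 was lower than WT#1 by 1.28 on the log2 scale (SE 0.18, adjusted p = 0.0018), while MCM2-2A#2 was higher by 1.25 (adjusted p = 2.3e-04). Its neighbour Igf2, a paternally expressed growth factor, varied more within lines: 36.2, 21.3, 30.7 and 37.2 CPM in WT#1 and 15.7, 17.3, 62.2 and 44.3 in MCM2-R#2 (0.15, SE 0.37, adjusted p = 0.92).

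Mest, a paternally expressed hydrolase-like gene on chromosome 6 but far from Mcm2 (chr6:30723547-30748465), moved to opposite sides of WT#1. Its level was 78.2, 74.6, 96.5 and 85.4 CPM in WT#1, 26.3, 26.5, 41.1 and 33.5 in MCM2-2A#2, and 154, 149, 204 and 170 in MCM2-R#2. This was 1.01 above WT#1 (SE 0.13, adjusted p = 0.0011) and 2.41 above MCM2-2A#2 (SE 0.14, adjusted p = 8.2e-07). Grb10, an adaptor that dampens insulin and IGF receptor signalling (chr11:11930508-12038683), rose from 105, 97.8, 91.0 and 110 CPM in WT#1 to 201, 246, 164 and 196 in MCM2-R#2 (1.00, SE 0.11, adjusted p = 1.6e-04). In MCM2-2A#2 it had 139, 138, 112 and 145 CPM, and MCM2-R#2 was also above that (0.59, SE 0.11, adjusted p = 0.0055). Zrsr1, a U2AF-related splicing factor gene, had 15.2, 16.7, 14.5 and 17.1 CPM in WT#1 and 26.6, 26.1, 26.4 and 29.7 in MCM2-R#2 (0.78, SE 0.07, adjusted p = 1.8e-05). In MCM2-2A#2 its difference from WT#1 was 1.06.

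Impact, a regulator of the eIF2 kinase GCN2, had 134, 127, 134 and 136 CPM in WT#1 and 81.3, 89.7, 84.6 and 75.8 in MCM2-R#2 (-0.68, SE 0.06, adjusted p = 2.2e-05). MCM2-2A#2 had 71.8 to 85.0 CPM, and the edited lines did not differ past the limits (0.11, adjusted p = 0.32). Among the imprinted genes not called, Nnat had 3.66 ± 1.50 CPM in WT#1 and 11.3 ± 3.74 in MCM2-R#2 (mean ± SD, n = 4; 1.59, edgeR adjusted p = 0.014; called by DESeq2). Dio3, at the far end of the chromosome 12 domain, had 1.92 ± 0.224 and 3.57 ± 0.745 CPM (0.88, edgeR adjusted p = 0.039, n = 4). Peg10 had 697 ± 218 and 1271 ± 381 CPM (0.87, edgeR adjusted p = 0.21, n = 4).

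**Figure D3:**
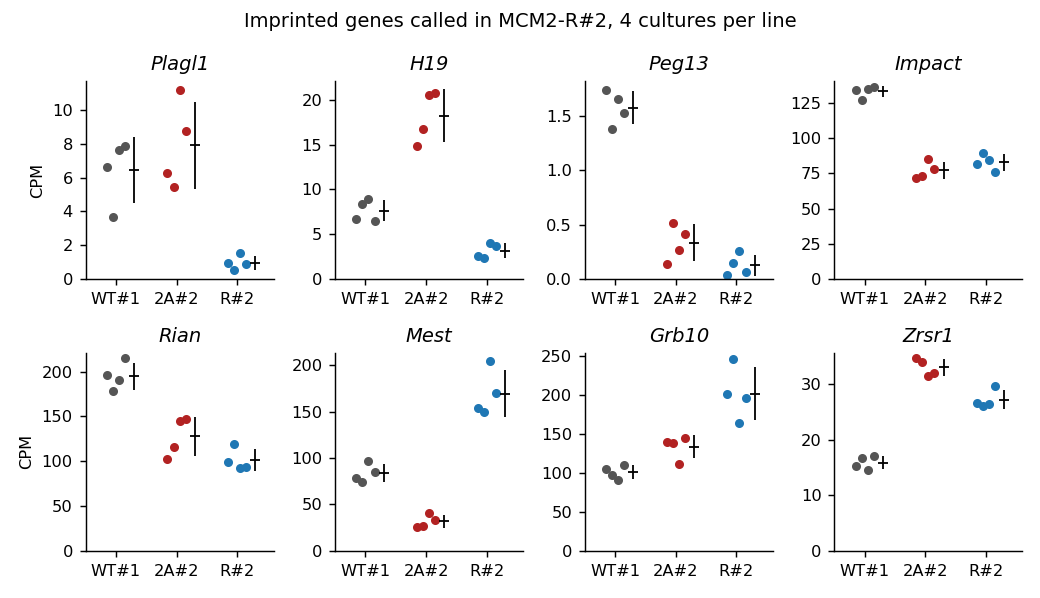
Levels (CPM, linear axes from 0) of imprinted genes called in MCM2-R#2, with 1 point per culture and 4 cultures of WT#1, MCM2-2A#2 (2A#2) and MCM2-R#2 (R#2), and the mean ± SD beside them. Plagl1 is low in MCM2-R#2 alone, H19 and Mest lie on opposite sides of WT#1 in the other lines, and Impact and Zrsr1 are displaced to the same side in both.

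The targeted gene itself was lower. Mcm2 had 403, 439, 433 and 397 CPM in WT#1, 219, 233, 231 and 218 in MCM2-2A#2, and 213, 206, 214 and 218 in MCM2-R#2. The difference of MCM2-R#2 from WT#1 was -0.98 (SE 0.05, adjusted p = 2.3e-08), or 50.9% of the WT#1 mean, and that from MCM2-2A#2 was -0.08 (SE 0.05, adjusted p = 0.30). The other subunits of the helicase ring, Mcm3 to Mcm7, differed from WT#1 by -0.05 to 0.06 (adjusted p = 0.73 to 0.86). Per kilobase of exon, Mcm2 had 60.1 CPM in WT#1 and 30.6 in MCM2-R#2, whereas Mcm6, the ring subunit nearest to it in WT#1, had 55.4 and 53.4. On this measure Mcm2 was within the WT#1 range of Mcm3 to Mcm7, of 55.4 to 100 CPM per kilobase, in WT#1 and below it in MCM2-R#2. The length was that of all annotated exons, 6956 bases for Mcm2 and 3589 to 4666 for Mcm3 to Mcm7. A shorter Mcm2 transcript would raise both Mcm2 values, so which line departs from the other subunits was not settled.

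The low level was shared by the genes next to Mcm2. In the stretch from Mcm2 to Slc6a6, chr6:88883474-91759066 (2.88 Mb), 27 genes were tested and 17 were called, all lower. All 27 were below 0, 22 did not overlap between the lines, and the median was -0.98. As a ratio of means, MCM2-R#2 had a median of 50.8% of WT#1, from 26.6% to 73.6%. Of the 17 genes with at least 2 CPM in WT#1, 16 were called. The 5 tested genes on each side of the stretch, 10 in all, held 0 calls, with differences of -0.35 to 0.10 and a median of -0.02 (edgeR, with 0 at an unadjusted p under 0.05, and 0 calls by DESeq2). The limits of the stretch were chosen with earlier results of these data known. Its counts and those of the genes beside it are therefore a description.

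At the far end of the stretch, Slc6a6, the taurine transporter, had 155, 150, 160 and 152 CPM in WT#1 and 75.3, 69.2, 84.6 and 71.2 in MCM2-R#2 (-1.04, SE 0.07, adjusted p = 1.7e-06). Lsm3, a subunit of the ring that binds U6 snRNA, had 40.8, 46.9, 45.8 and 46.4 CPM and 23.3, 21.8, 20.5 and 21.6 (-1.05, SE 0.06, adjusted p = 2.0e-07). The groups were far apart at both genes. Xpc, which recognises DNA damage for nucleotide excision repair, differed by -1.14, Nup210, a membrane protein of the nuclear pore, by -0.95, and Chchd4, an import factor of the mitochondrial intermembrane space, by -0.98. Klf15, a zinc finger transcription factor, differed by -1.14, Plxna1, a semaphorin receptor, by -0.96, and the guanine exchange factor gene Iqsec1 by -0.92. Tpra1, Zxdc, Chchd6, Txnrd3, Tmem43, Hdac11, AC161456.1 and 4933427D06Rik made up the rest, at -1.89 to -0.84. AC161456.1 overlaps the end of Lsm3 on the same strand, so the calls of these genes may not be independent. The 10 genes of the stretch that were not called had differences of -1.19 to -0.51. MCM2-R#2 was not called against MCM2-2A#2 at any of the 27 genes.

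**Figure D4:**
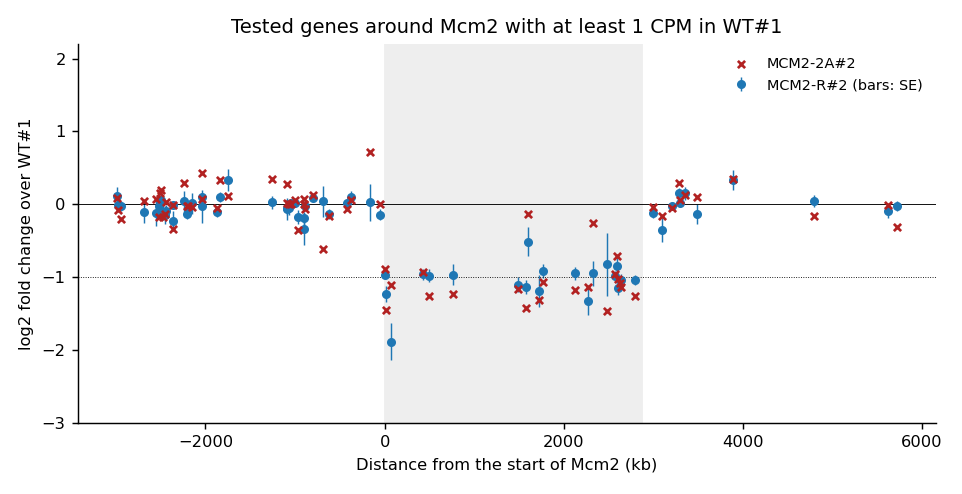
Log2 fold change over WT#1 of tested genes with at least 1 CPM in WT#1, against the distance from the start of Mcm2 in kb, for MCM2-2A#2 (crosses) and MCM2-R#2 (points with SE bars). Over the shaded stretch from Mcm2 to Slc6a6 the values of both lines gather around the dotted line at -1, and they return towards 0 on either side.

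Chromosome Y genes were low in MCM2-R#2. Of 9 listed single-copy genes 6 were tested and 5 were called, where 0.298% of all genes were called. Usp9y, tested but not called, had a mean of 0.287 CPM in WT#1 and 0.139 in MCM2-R#2 (-0.88, edgeR adjusted p = 0.62). In MCM2-2A#2 its difference from WT#1 was 0.48. Uty, a homologue of the H3K27 demethylase UTX, had 23.4, 25.3, 27.4 and 28.1 CPM in WT#1 and 0.834, 0.599, 1.21 and 0.836 in MCM2-R#2 (-4.92, SE 0.15, adjusted p = 9.5e-11). Ddx3y, an RNA helicase gene, had 42.9, 44.3, 50.9 and 50.8 CPM and 1.38, 1.83, 2.08 and 2.65 (-4.57, SE 0.16, adjusted p = 3.5e-10). These genes kept 3.34% and 4.20% of the WT#1 mean. Uba1y, a ubiquitin-activating enzyme gene, differed by -2.39 (adjusted p = 3.3e-06) and Zfy1, a zinc finger gene, by -2.81 (adjusted p = 0.0032). Eif2s3y, which encodes the gamma subunit of eIF2, was the exception in size. It had 22.6, 25.3, 32.5 and 24.9 CPM in WT#1, 5.02, 3.75, 5.66 and 3.42 in MCM2-2A#2, and 13.1, 11.9, 11.7 and 9.54 in MCM2-R#2. It was thus lower than WT#1 by 1.19 on the log2 scale (SE 0.15, adjusted p = 5.4e-04) and above MCM2-2A#2 by 1.40 (SE 0.16, adjusted p = 1.9e-04). The other called chromosome Y genes did not pass between MCM2-R#2 and MCM2-2A#2 (adjusted p = 0.085 to 0.73). The X-linked homologues showed no such difference: 0 of 7 were called, at -0.03 to 0.16. In bulk RNA, fewer cells with a gene and less RNA per cell cannot be told apart.

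Outside these groups, Ube3c, a ubiquitin ligase gene that acts at the proteasome (chr5:29569242-29676092), had 111, 120, 121 and 120 CPM in WT#1, 63.4, 62.6, 65.4 and 62.6 in MCM2-2A#2, and 63.4, 60.0, 65.1 and 66.5 in MCM2-R#2. The difference from WT#1 was -0.89 (SE 0.05, adjusted p = 7.6e-08) and that from MCM2-2A#2 was 0.01 (SE 0.05, adjusted p = 0.96). Fanca, a core component of the Fanconi anaemia repair complex, was low in MCM2-R#2 alone. It had 23.3, 21.7, 28.2 and 23.9 CPM in WT#1, 25.3, 23.2, 28.2 and 25.7 in MCM2-2A#2, and 14.2, 14.9, 15.8 and 15.3 in MCM2-R#2 (-0.69 against WT#1, adjusted p = 4.4e-04, and -0.76 against MCM2-2A#2, adjusted p = 1.2e-04). Rhox5, an X-linked homeobox gene, had 15.7 to 23.0 CPM in WT#1 and 5.77, 6.47, 10.4 and 9.33 in MCM2-R#2 (-1.25, SE 0.16, adjusted p = 8.8e-04). Wnk3, a kinase gene of ion transport and the only called gene outside the imprinted loci that was higher, had 30.2, 40.8, 32.0 and 32.9 CPM and 60.3, 54.6, 50.7 and 50.9 (0.67, SE 0.09, adjusted p = 7.4e-04). In MCM2-2A#2 Rhox5 differed from WT#1 by -1.53 and Wnk3 by 0.82.

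Gm28625 (205 bases on chromosome 9) had 2.15, 3.09, 2.35 and 2.27 CPM in WT#1, 0.447, 0.334, 0.359 and 0.242 in MCM2-2A#2, and 1.20, 0.869, 0.951 and 0.801 in MCM2-R#2, between the other lines. Nkx6-3, a homeobox gene, had 2.49, 1.20, 1.64 and 1.31 CPM in WT#1 and 0.254, 0.180, 0.548 and 0.488 in MCM2-R#2 (-2.17, adjusted p = 0.0034). B3glct, a glucosyltransferase gene, differed by -0.88, the non-coding RNA gene Gm32885 by -0.81, Gpt2, a mitochondrial alanine transaminase, by -0.69, and Srpk2, a kinase of SR proteins, by -0.59. Miip differed by -1.04, Platr14 by -0.73 and the pseudogene Sms-ps by -1.28, and Dppa3 is described with its list.

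Leaving out 1 culture took 13 of the 51 genes out of the edgeR calls in at least 1 of the 8 cases. Tmem43 kept its call only without WT#1 culture 3 and Txnrd3 only without WT#1 culture 4 or MCM2-R#2 culture 3. In the other cases their adjusted p reached 0.041 and 0.019. Dppa3 kept it only without MCM2-R#2 culture 1 or 2, Sms-ps only without WT#1 culture 2 or MCM2-R#2 culture 4, and Platr14 only without WT#1 culture 3 or MCM2-R#2 culture 4, with an adjusted p of up to 0.029, 0.035 and 0.021 otherwise. Fewer omissions cost the remaining genes their call. These were WT#1 culture 1, 3 or 4 or MCM2-R#2 culture 1 or 4 for Gpt2 (up to 0.024), WT#1 culture 1 or 3 or MCM2-R#2 culture 1 or 3 for Miip (up to 0.014), and WT#1 culture 1 or MCM2-R#2 culture 1, 2 or 3 for Zfy1 (up to 0.019). They were WT#1 culture 1 or 4 or MCM2-R#2 culture 1 for Hdac11 (up to 0.014), WT#1 culture 3 or MCM2-R#2 culture 1 or 2 for Nkx6-3 (up to 0.018) and MCM2-R#2 culture 2 for Gm28625 (0.011). Srpk2 came inside the limit of 0.58 without WT#1 culture 4 or MCM2-R#2 culture 3 or 4 (-0.56 at the least). The calls at the Dlk1-Meg3 interval, Mcm2, Slc6a6, Uty, Ddx3y, Plagl1, H19, Mest, Grb10, Peg13, Impact, Zrsr1 and Ube3c stood in all 8 cases. In the libraries of run 1 alone B3glct, Mir432 and 9 of these 13 genes were not called.

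Lists of genes that mark cell states showed few calls. Over all 17098 genes, 51 (0.298%) were called and 1912 had an unadjusted edgeR p under 0.05. Of the same genes 8106 were below 0, and 1052 (6.15%) did not overlap between the lines. Over the 20 gene lists with 0 edgeR calls, 1 to 11 members had an unadjusted p under 0.05, the 11 being of the 2-cell-like list. DESeq2 called 1 member of these lists in all, Usp17la. Of 20 naive pluripotency genes 1 was called. This was Dppa3, an oocyte and germline factor that protects DNA methylation marks after fertilisation, with 6.51, 6.97, 7.71 and 6.57 CPM in WT#1 and 4.43, 4.40, 3.07 and 2.72 in MCM2-R#2 (-0.93, SE 0.15, adjusted p = 0.0068). The median of the list was -0.07. Of 25 lineage-priming genes 0 were called, with a median of 0.13.

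Of 28 primitive endoderm genes 24 were tested and 0 were called in MCM2-R#2, at a median of 0.04 and a range of -0.42 to 0.41. The median of the same genes in MCM2-2A#2 over WT#1 was 1.19. Cubn, an endocytic receptor of visceral endoderm, had 6.34, 4.36, 5.24 and 5.85 CPM in WT#1 and 4.32, 3.57, 4.61 and 4.84 in MCM2-R#2, or -0.33 over WT#1, where the value of MCM2-2A#2 was 2.08.

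The genes of the 2-cell-like state, a rare ESC state that expresses transcripts of the early embryo, stood apart in their median. Of 26 tested, 25 were above 0, with a median of 0.56, but 0 were called and 3 did not overlap. Usp17la, a member of a deubiquitinase family, had the lowest p, with 1.69, 2.72, 1.82 and 1.90 CPM in WT#1 and 2.72, 4.34, 4.86 and 4.39 in MCM2-R#2 (1.01, SE 0.19, adjusted p = 0.021). Summed over the list, WT#1 had 60.6 to 92.3 CPM and MCM2-R#2 59.7 to 123 CPM, so the lines overlapped. MERVL-int, the retroviral element active in this state, had 509, 576, 385 and 516 CPM in WT#1 and 364, 587, 534 and 600 in MCM2-R#2 (0.07, adjusted p = 0.94). Several members of the list are near-identical copies and can share reads. The median of the list in MCM2-2A#2 was 0.89.

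The lists of replication and chromatin factors held 0 calls apart from Mcm2. The 32 genes of the replisome and of parental histone recycling had differences of -0.15 to 0.12. The 36 Polycomb and heterochromatin factors lay between -0.22 and 0.21, and the 16 DNA methylation genes tested between -0.36 and 0.16. Apobec1, a cytidine deaminase gene, was the lowest of the last list, at 2.83, 3.67, 2.92 and 4.02 CPM in WT#1 and 2.43, 2.61, 1.90 and 3.52 in MCM2-R#2.

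Of the response lists, the integrated stress response had 16 of 17 rows below 0, a median of -0.25 and 0 calls. An unadjusted edgeR p under 0.05 was found for 7 of the 17. The list summed to 1588 to 1689 CPM in WT#1 and 1242 to 1577 in MCM2-R#2, without overlap. Atf4, its central transcription factor, had 155, 145, 184 and 170 CPM in WT#1 and 128, 121, 115 and 135 in MCM2-R#2 (-0.39, SE 0.08, adjusted p = 0.045). Its values did not overlap. Of 15 tested interferon-response genes 14 were below 0, with a median of -0.15 and 0 calls, and the list summed to 534 to 584 CPM in WT#1 and 489 to 517 in MCM2-R#2, without overlap. The 21 p53 targets had a median of 0.12, the 15 immediate early and heat shock genes one of 0.21, and the cholesterol synthesis and glycolysis lists ones of -0.07 and -0.03, each with 0 calls. Egr1, an immediate early transcription factor, had 27.3, 34.2, 28.4 and 30.1 CPM in WT#1 and 40.0, 39.4, 40.4 and 36.2 in MCM2-R#2 (0.38, adjusted p = 0.031). Germline and meiosis genes (26 tested, median 0.15) and trophectoderm genes (20 tested, median 0.11) held 0 calls.

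Markers of other cells were present at a low or overlapping level. The 13 tested fibroblast markers summed to 698 to 874 CPM in WT#1 and 789 to 1142 in MCM2-R#2. Most of this was Fn1, with 607 to 709 CPM in WT#1 and 655 to 877 in MCM2-R#2. Col1a1 had 78.4, 31.6, 64.4 and 67.7 CPM in WT#1 and 35.5, 42.1, 144 and 122 in MCM2-R#2. Of the 13 markers 12 were above 0, with a median of 0.31 and 0 calls. Of those not tested, Lum had 1 count in WT#1 and 0 in MCM2-R#2, and Dcn had 24 and 25. Neural markers (17 tested, median 0.03, summed 693 to 843 CPM against 776 to 890) and mesoderm markers (16 tested, median 0.13, summed 163 to 232 CPM against 198 to 270) also held 0 calls. The part of such cells in the differences above was not tested.

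Among repeat subfamilies, edgeR called 0 of 879 (0%), with 66 at an unadjusted p under 0.05 and 39 (4.44%) without overlap, and DESeq2 called 1. The median was 0.08. MMERGLN-int, the internal part of a gammaretrovirus-like element, had 103, 117, 95.1 and 105 CPM in WT#1 and 67.3, 68.7, 66.6 and 71.9 in MCM2-R#2 (-0.61, SE 0.10, adjusted p = 0.021). It was below WT#1 in every culture, whereas in MCM2-2A#2 its difference from WT#1 was 1.92. The long terminal repeat of the same element, MMERGLN_LTR, differed by -0.52 (adjusted p = 0.18) and RLTR14 by -0.50 (adjusted p = 0.21). In the other direction the lowest p-values were those of RMER6C (0.33), MLT1E1A (0.46), MMERVK10C-int (0.35), L1Md_Gf (0.38) and Lx3A (0.32), with an adjusted p of 0.13 to 0.31. Of RLTRETN_Mm and Lx2B2, the remaining subfamilies with low p, the former differed by -0.21 (adjusted p = 0.46). The latter rests on WT#1 culture 3, where run 1 gave 29563 counts and run 2 gave 1942. It differed by -1.30 with that culture (adjusted p = 0.59) and by 0.08 without it. The 15 IAP subfamilies tested had a median of 0.15, the 6 young L1 ones 0.12, the 5 ETn and MusD ones -0.20 and the 5 satellites 0.23. GSAT_MM, the major satellite, had 46.9, 64.0, 45.2 and 53.7 CPM in WT#1 and 53.5, 69.7, 78.9 and 100 in MCM2-R#2 (0.53, adjusted p = 0.48).

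A separately made count table of the same study held 7 WT clones with a matched column (WT#5 was not analysed here), which show how far such genes vary between wild-type clones of this background. Levels in that table were not set against MCM2-R#2 directly, as it was scaled on its own. The spread between the highest and the lowest WT clone, on the log2 scale, exceeded the size of the MCM2-R#2 difference for 5 of the 7 other imprinted genes and for 10 of the 15 remaining ones. It did so for 2 of 16 genes of the chromosome 6 stretch, 1 of 5 on chromosome Y and 0 of 5 of the Dlk1-Meg3 cluster with a level in every WT clone. A range over 7 clones, each the mean of 2 libraries, tends to exceed a difference between 1 pair of lines. At low levels it also holds counting error. These counts therefore do not show that a difference lies within the usual variation between clones. H19 ranged from 0.715 to 66.6 CPM between WT clones, Plagl1 from 2.87 to 39.5 and Grb10 from 13.3 to 120. Mcm2 itself ranged from 218 to 405 CPM, with WT#1 at 351. This was a log2 range of 0.893, beside a difference of 0.975 in size between MCM2-R#2 and WT#1. Ube3c ranged from 146 to 182 CPM and stood at 74.1 in MCM2-2A#2. Mir433 was found in every WT clone, at 0.410 to 0.843 CPM, and in MCM2-2A#2 at 0.492. Gm24895 and Gm27350, by contrast, were at 0 in all 7 WT clones, WT#1 included, and in MCM2-2A#2. For these features the WT clones therefore give no comparison. AC161456.1 of the chromosome 6 stretch was at 0 in 3 of the 7 WT clones, WT#1 included, and at most 0.0729 CPM in the others.

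**Figure D5:**
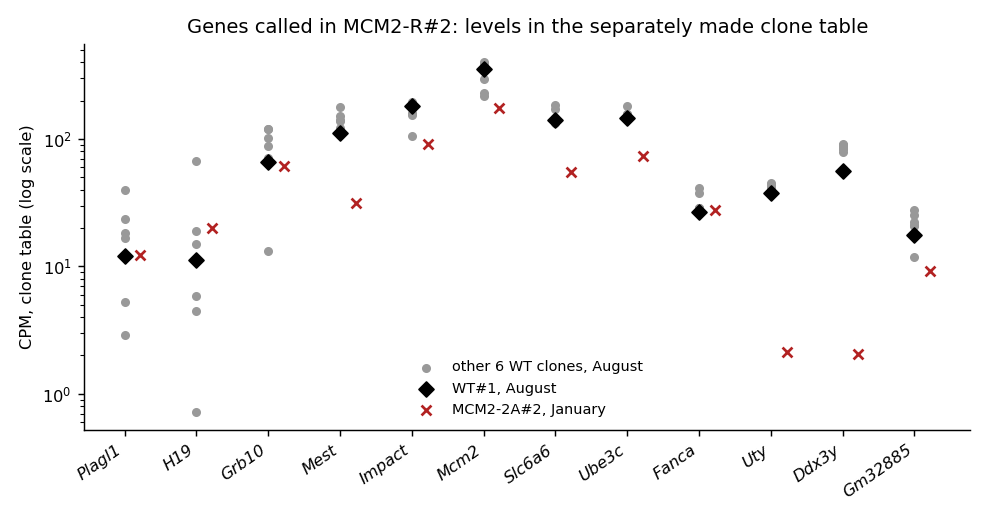
Levels (CPM, log scale) of genes called in MCM2-R#2 in the clone table, with 1 grey point for each of 6 WT clones, a diamond for WT#1 and a cross for MCM2-2A#2, whose libraries were of another batch. The WT clones spread widely at H19 and Plagl1 and narrowly at Ube3c, where MCM2-2A#2 lies below them all.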

How the data were processed

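RNA of mouse ESC was sequenced after depletion of ribosomal RNA. Raw counts of genes and repeat subfamilies were deposited by the authors, made from reads that, per the submitters' processing notes, were trimmed with Trimmomatic 0.39, aligned to mm10 with STAR 2.7.1a and, for part of the series, counted with featureCounts. Counts were used as deposited. Overlapping features are assigned by that counting, so short RNAs inside a long gene may gain or lose reads. In the rescue counts both overlapping rows of Rmrp had the same level in every culture, so a read can be counted at each. The calls of Rian and of Gm24895, which lies inside it, may therefore not be independent. Symbols and positions came from a GENCODE annotation of mm10 that held 55154 of the 55335 gene rows. Runs of a culture were added.

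All 12 cultures of the rescue experiment (WT#1, MCM2-2A#2, MCM2-R#2) were fitted together in edgeR 4.0.16 (R 4.3.3) with the quasi-likelihood test, TMM factors from genes alone and filterByExpr (minimum count 10, minimum total 15). Genes and repeats were adjusted separately by the Benjamini-Hochberg method. Calls required an adjusted p under 0.01 and a change of over 0.58 (log2) either way. The SE is the log2 fold change over the square root of F. Tests were run on counts simulated from the WT#1 means and the dispersions of the fit itself. Such data cannot show an effect of having 1 clone per line, of the run or of shared reads. Replicate cultures were labelled as biological replicates of 1 clone per line, so p-values measure the spread between cultures, not between clones. Intervals of count ratios are exact (95%) and cover counting error only.

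The members and gene lists were chosen with earlier results of these data known. Named were Mcm2, the tested genes of the chromosome 6 stretch and of the chromosome Y list, called members of the lists, the 12 called genes with the largest change in each direction among those of at least 1 CPM without overlap, and the 5 repeats of lowest p in each direction. The other called genes, list members that were not called and the features of the chromosome 12 interval were added after their values were seen. Of the clone table, 3 columns matched no sample label and were not used, nor was the table of the POLE4 experiment. A called gene and its list are not reported here. Alternatives included DESeq2 1.42.0.

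Replicate numbers are shared between lines, but the main fit did not use them to pair the cultures. Over 9147 genes, residuals of same-numbered WT#1 and MCM2-R#2 cultures correlated above 0.1 in 1 of 4 pairs (-0.17 to 0.53), and in 4 of 12 other pairs. The highest value of all, 0.53, was that of the cultures numbered 3. Whether same-numbered cultures were paired is thus not settled.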

Additional observations from a re-analysis of the deposited data

Results flagged for a closer look

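Of 122 groups of 4 cultures tested for a value far from the other 3, 11 had one, where chance gives about 1 in 20. In WT#1, culture 1 was low for Ube3c (111 CPM), culture 2 high for 4933427D06Rik (2.54 CPM) and culture 4 high for Gm24895 (6.91 CPM). WT#1 culture 3 was low for Tmem43 (18.3 CPM) and high for Gpt2 (66.0 CPM), RLTRETN_Mm (149.5 CPM) and Lx2B2 (537 CPM). In MCM2-R#2, culture 4 was high for Zrsr1 (29.7 CPM), and a single count set apart culture 3 for Gm27350 and Mir434 (0.0366 CPM each) and culture 4 for Mir433 (0.0348 CPM).

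MCM2-R#2 and MCM2-2A#2 differed from each other past the limits, by the edgeR contrast between these lines, at 14 of the 51 genes called against WT#1. On the log2 scale the differences of MCM2-R#2 minus MCM2-2A#2 were -6.56 for Gm24895, -6.15 for Gm27350, -5.89 for Mir433, -4.96 for Mir434 and -4.10 for Mir432, fitted values that depend on the prior count because MCM2-R#2 was near 0. They were 2.44 for Mir3070b, -3.04 for Plagl1, -2.53 for H19, 2.41 for Mest and 0.59 for Grb10 among imprinted genes. Elsewhere they were 1.40 for Eif2s3y, 1.51 for Gm28625, -1.11 for Sms-ps and -0.76 for Fanca.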

How the results depend on the processing

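The 51 calls became 51 with RLE and 50 with upper-quartile factors, 71 with DESeq2, 87 without a filter on low counts, 75 at an adjusted p limit of 0.05, 41 in the 8 cultures of both lines alone, 40 in the libraries of run 1, 58 with the run as a covariate, 42 to 50 without 1 culture, and 21 with glmTreat against 0.58. With exon length of at least 200 bases, an alternative chosen after seeing the data, 45 remained, the 6 short RNAs of chromosome 12 being left out by construction. Calls lower in MCM2-R#2 numbered 71 without a filter and 20 with glmTreat. Calls higher numbered 12 with DESeq2, 16 without a filter, 9 with the run covariate, 11 with the replicate block, 13 at the limit of 0.05 and 1 with glmTreat, against 5. Among repeats 3 were called without a filter (MMERGLN-int, FordPrefect and Lx2B2), and 1, MMERGLN-int, with DESeq2, in the 8 cultures alone, in run 1 alone, with the run covariate, with the replicate block and at the limit of 0.05. Of the 51 genes, 15 were called in all 19 settings and 4 more, Mir433, Mir3070b, Gm24895 and Gm27350, in the 18 that tested them, and Dppa3, Sms-ps and Tmem43 were lost most often, in 10. Without 1 culture Lx2B2 ranged from -1.56 to 0.081, the latter, a reversal, without WT#1 culture 3. Causes of these shifts were not tested, except where a setting changes the genes or samples tested.

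The replicate block gave 59 calls, 49 of them among the 51. With it 2687 genes had an unadjusted edgeR p under 0.05, against 1912 without it. Of 4 MCM2-R#2 cultures 1 correlated best with its own number, and whether the numbers pair the cultures is not settled. MCM2-R#2 had no library in run 2, so its comparison with WT#1 is partly confounded with the run.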
